A study of Mus musculus with 15 samples.

Results

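Lymphatic endothelial cells (ECs) line the vessels that return tissue fluid, lipid and immune cells to the blood. In the wall of the aorta such vessels run in the adventitia. The cells described here came from single-cell RNA libraries of whole mouse aorta and were chosen by their measured levels of marker genes in unique molecular identifiers (UMIs, each a captured RNA molecule). A barcode had to hold 200 to 7000 genes with at most 25% mitochondrial UMIs. It also needed at least 1 UMI of Prox1 and at least 2 of the 5 genes Lyve1, Mmrn1, Flt4, Ccl21a and Reln with a UMI. Barcodes with a UMI of the leukocyte gene Ptprc, or with more than 1 UMI in sum of the fibroblast genes Col1a1, Lum and Pdgfra, were left out. The rule found 1131 lymphatic ECs among the 128019 cells that passed the filter, 0.883% of them. They came from all 15 libraries, with 20 to 205 cells per library.

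The study asked how age and a senolytic compound, the flavonoid fisetin, change the vessel wall of wildtype C57BL/6N mice of both sexes. Fisetin was given by oral gavage at 100 mg/kg per day in courses of 1 week separated by 2 weeks without it, and controls received the vehicle on the same schedule. The aortas were taken 1 to 2 weeks after the last dose. There were 4 libraries of young mice on vehicle (Y VEH) and 4 of young mice on fisetin (Y FIS). Of old mice there were 3 on vehicle (O VEH) and 4 on fisetin (O FIS). The plots write these names as Y_VEH, Y_FIS, O_VEH and O_FIS. Old mice were 27 months of age, while young mice were 3 months in the series description and 6 months in the study's methods. Per the labels each library pooled the aortas of 3 mice of 1 sex, after removal of perivascular adipose tissue and a sort for viable single cells, although the study's count of old mice allows fewer in some pools. Each group had 2 female (F1, F2) and 2 male (M1, M2) libraries, except O VEH, with 1 male library. The libraries are the replicates, and each is a pool, so p-values below measure the spread between pools.

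Prox1 is the homeobox transcription factor that sets and keeps lymphatic endothelial identity. Flt4 (VEGFR3) is the receptor for the lymphatic growth factor VEGF-C. Lyve1, a hyaluronan receptor, Ccl21a, the chemokine that draws dendritic cells and T cells bearing CCR7 into lymphatics, and Reln mark initial lymphatics in particular, whereas Mmrn1, a matrix glycoprotein, is made along the lymphatic tree. Collecting vessels carry less Lyve1 and Ccl21a and have valves whose cells use Foxc2, Gata2 and Itga9. The lymphatic lining of lymph node sinuses is a further class, with scavenger receptors such as Marco and Stab2.

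The libraries held 49964001 to 74587567 UMIs and 6372 to 14805 cells that passed the filter. The median lymphatic EC of a library had 3762 to 9941 UMIs and 2042 to 3699 genes, and the lowest value of both was that of Y FIS M1. That library also stood apart in hemoglobin RNA, since the erythroid genes summed to 6927 CPM (a level scaled by library size and TMM) in its lymphatic ECs and to at most 326 in the other 14 libraries. Scrublet marked 1.64% of all cells as doublets and 11 of the 1131 lymphatic ECs. In 2 libraries, Y FIS F2 and O VEH F1, it marked 2 cells each, against 60 to 603 in the others. Doublets may have been missed there, and the reason was not tested. Across the 105 pairs of libraries, 1 lymphatic EC barcode in all was shared.

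The label was checked against genes that the rule did not use. Levels are given as CPM of the lymphatic ECs of a library, scaled by the trimmed mean of M values (TMM), as mean ± SD over the 15 libraries. They are not divided by gene length and are compared between samples and cell classes, not between genes. The comparison class was the 50489 blood ECs, which had at least 2 of 5 general endothelial genes, no Prox1 and the same limits on Ptprc and fibroblast genes. Since the rule separates the 2 classes by expression, their differences are a description without a test. Pdpn (podoplanin) was at 99.6 ± 49.1 CPM in lymphatic and 2.73 ± 1.57 in blood ECs. Nr2f2 (COUP-TFII), a partner of Prox1 that veins use too, was at 766 ± 119 and 166 ± 47.7. Sox18, which switches Prox1 on in the embryo, was lower in lymphatic ECs, at 162 ± 35.5 against 358 ± 68.4. The general endothelial genes Pecam1 (916 ± 102 against 1291 ± 121 CPM) and Cdh5 (442 ± 58.9 against 1107 ± 90.3) were present in both classes. Both genes are among the 5 that chose the blood ECs, so their level in that class was in part set by the choice. Pdpn was not even among the cells, which fell into the 5 clusters described below, with 336 CPM in cluster 1 (67.5% of cells with a UMI), 85.4 in cluster 3, 36.5 in cluster 5, 30.3 in cluster 4 and 11.7 in cluster 2 (6.41%).

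Markers of other cell types were summed per library in the lymphatic ECs. T cell genes summed to 3.06 to 22.2 CPM over the libraries, mesothelial genes to 0 to 2.66 and adipocyte genes to 0 to 13.3. Smooth muscle genes summed to 124 to 533 CPM, against a median of 29305 in smooth muscle cells of the same libraries. Those cells were chosen by a UMI of Myh11 and of Acta2, both on the list, and none of Pecam1 or Ptprc. Their high sum was thus in part set by the choice. Fibroblast genes, without the 3 used in the rule, summed to 340 to 1671 CPM, highest in Y FIS M1. In the smooth muscle cells the median of this sum was 9967 CPM, so that class was not free of genes of other types. Macrophage genes summed to 793 CPM in Y VEH F1 and to 12.4 to 177 CPM in the other 14 libraries. B cell genes without Cd74 stayed between 24.6 and 211 CPM except in O FIS F1, with 1206 CPM. There the sum was mostly immunoglobulin kappa, Igkc, at 967 CPM, and smooth muscle cells of that library held Igkc at 906 CPM and blood ECs at 9646 CPM.

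The genes with the highest ratio of lymphatic to blood EC level, among genes at 50 CPM or more and outside the rule, were of several kinds. Apba2 (71.9 CPM, ratio 323), Scn3a, a sodium channel subunit (74.0 CPM, ratio 200), Pld5 (67.3 CPM, ratio 197) and Duox2, an oxidase that makes hydrogen peroxide (86.7 CPM, ratio 173), led the list. Guidance genes were Sema3a (356 CPM, ratio 112) and Sema3d (823 CPM, ratio 70.0), both secreted semaphorins. Atypical chemokine receptors, which take up chemokines without signalling through G proteins, were Ackr4 (583 CPM, ratio 77.8) and Ackr2 (56.2 CPM, ratio 76.8). Ackr4 binds Ccl21a's product. Lcn2 (lipocalin-2, an iron siderophore binder) was at 653 CPM with a ratio of 88.6, Nts (neurotensin) at 741 CPM with 55.5, and the transcription factor Maf at 572 CPM with 53.1. Of the 20 genes at the top of this list, 17 were above the blood EC level in every library, and the exceptions Ackr2, Stab2 and Marco were at 0 in some lymphatic samples. The ratio that chose these genes came from the same libraries, so this count largely follows from the choice.

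The lymphatic ECs were not uniform. Of the 1131 cells, 458 had exactly 2 of the 5 further marker genes, the least the rule admits, and 369 had all 5. A further 519 cells with Prox1 but only 1 of the 5 genes lay just outside the rule. Another 679 cells had at least 2 of the 5 genes but no Prox1 UMI. Those with at least 2 of the 5 general endothelial genes were counted as blood ECs. Clustering, without the genes that were called in any comparison and without the antigen presentation, interferon, stress, mitochondrial and sex-linked genes, gave 5 clusters, described here by number and leading genes without a test. Cluster 1 (403 cells, 35.6%) was led by Piezo2, a mechanically gated channel, Ccl21a and Kcnn3, and held Lyve1 at 4365 CPM, Ccl21a at 16434 CPM and Reln at 2878 CPM. Cluster 2 (390 cells, 34.5%) was led by Shisa9, Cyp26b1, which degrades retinoic acid, and Pla2g7, with Lyve1 at 46.4 CPM and Ccl21a at 5.04 CPM. So the initial lymphatic markers were high in cluster 1 and nearly absent from cluster 2, which held a like number of cells.

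Cluster 2 held Ackr4 (1042 CPM, against 1.81 in cluster 1), Wnt2 (249 against 27.7), Vwf, the clotting factor carrier (726 against 19.5), and Plvap, the diaphragm protein of fenestrae and caveolae (1178 against 103). Cluster 3 (171 cells) was led by Cacna1e, Slc41a1 and Odc1, kept Reln (807 CPM) with little Lyve1 (90.7 CPM), and had Foxp2, a transcription factor of collecting vessels and valves, at 1778 CPM. Cluster 4 (98 cells) was led by Marco, Hs3st5 and Clec4g, with Marco at 2784 CPM, Stab2, a hyaluronan scavenger receptor, at 1431 CPM, Itga2b at 201 CPM and Clu (clusterin) at 3886 CPM. Detected in cluster 4 were 8 of the 10 lymph node lymphatic markers, 9 of the 10 collecting and valve markers, 6 of the 7 capillary markers and 11 of the 16 blood endothelial markers. Cluster 5 (69 cells) was led by Cytl1 and had the blood EC genes Flt1 (1010 CPM) and Vwf (1494 CPM) with Prox1 at 232 CPM, the lowest of the 5 clusters. Detected in cluster 5 were all 16 blood endothelial markers, against 9 to 12 in the other clusters. Its cells had a median of 11082 UMIs, the highest of the 5 clusters. None of the clusters was given a cell type name, as at most 2 of the top 10 genes of any were markers of 1 lymphatic type.

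**Figure D1:**
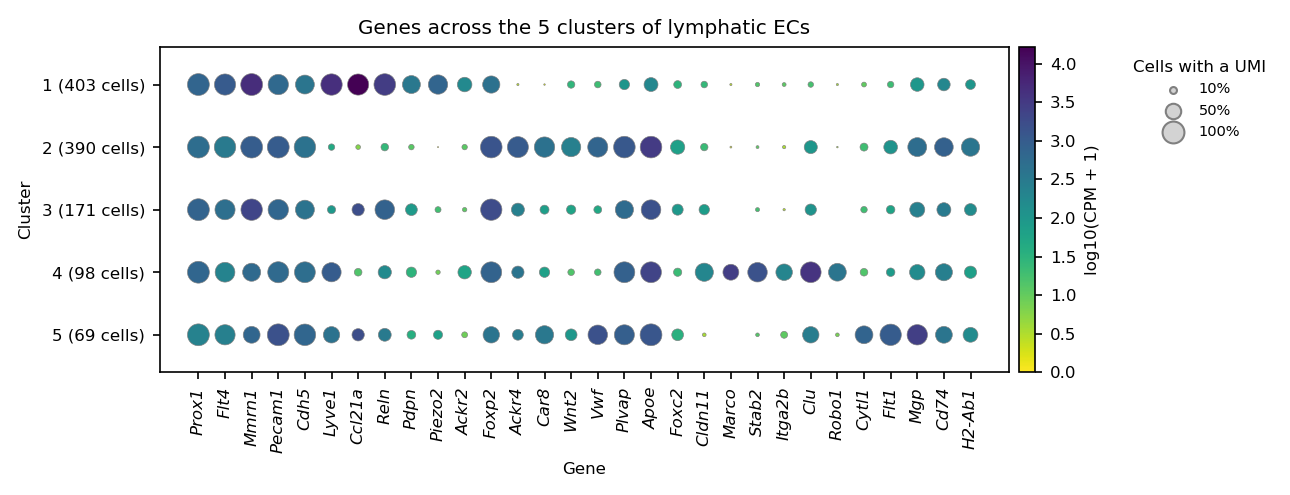
Genes (x axis) in the 5 clusters of lymphatic ECs (y axis), with the colour showing log10(CPM + 1) over the cells of a cluster and the size of a point the percent of its cells with a UMI. Lyve1, Ccl21a and Reln stand out in cluster 1, Ackr4, Wnt2 and Vwf in cluster 2, Marco and Stab2 in cluster 4, and Cytl1, Flt1 and Vwf in cluster 5.

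The clusters were spread over all libraries but cluster 4. Cluster 4 had 94 cells from young and 4 from old libraries, and 80 of its 98 cells came from the 2 Y FIS male libraries. It made up 19.0% and 22.2% of the lymphatic ECs of Y FIS M1 and M2, 20.5% in Y VEH M1, 14.3% (4 cells) in Y VEH F2 and 4.35% (1 cell) in Y VEH F1. It was not found among the lymphatic ECs of Y VEH M2, Y FIS F1 and Y FIS F2. In the old libraries it reached at most 1.69%, and none of them held more than 1 cell of it, the count in Y VEH F1. The old and young ranges overlapped because these 3 young libraries lacked the cluster. Cluster 2 made up 38.0% to 55.9% (median 47.9%) of the lymphatic ECs in old libraries and 12.7% to 69.6% (median 32.1%) in young ones. As genes that differ between the groups also differ between clusters, no test was made of these shares.

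**Figure D2:**
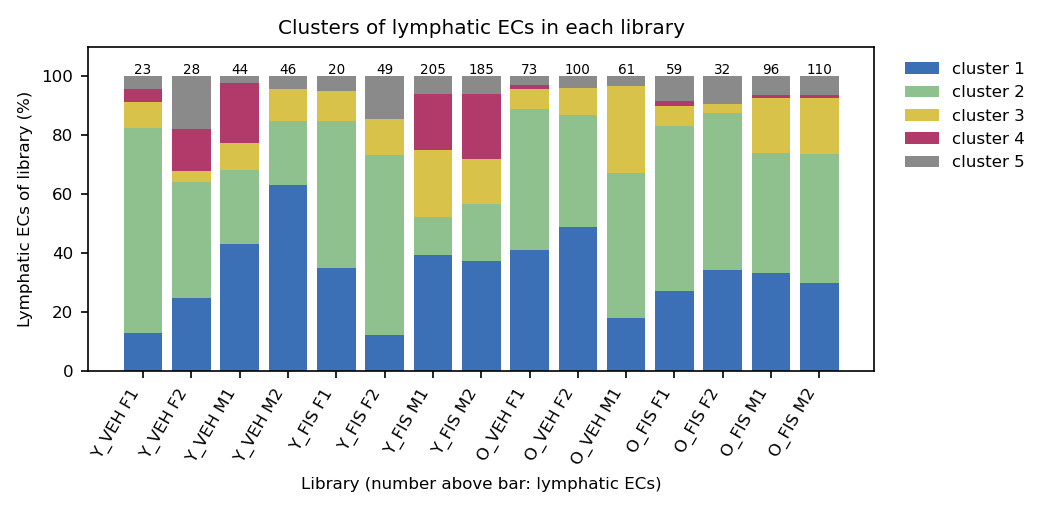
Percent of the lymphatic ECs of each library (y axis) in each of the 5 clusters (colours), with the number of cells above each bar. Cluster 4 is seen in 5 of the 8 young libraries at 4.35% (1 cell, Y VEH F1) to 22.2%. In the 7 old libraries it is at most 1.69%, with no more than 1 cell in any.

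How many of the aortic ECs were lymphatic was given per library, as lymphatic ECs in percent of lymphatic plus blood ECs. The share was 0.973%, 1.12%, 1.82% and 2.13% in Y VEH F1, F2, M1 and M2. It was 0.730%, 1.44%, 3.59% and 5.52% in the same order in Y FIS. The O VEH libraries F1, F2 and M1 held 2.34%, 2.53% and 1.55%. The O FIS libraries F1, F2, M1 and M2 held 1.95%, 0.937%, 1.92% and 2.41%. The 2 Y FIS males were above all other libraries, and the 4 groups overlapped otherwise.

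O VEH was 0.631 percentage points above Y VEH (2.14% ± 0.521, n = 3, against 1.51% ± 0.554, n = 4; two-sided exact permutation test over libraries, p = 0.200). O FIS was 0.337 points below O VEH (1.81% ± 0.620, n = 4; exact p = 0.486). Y FIS was 1.31 points above Y VEH (2.82% ± 2.17, n = 4; exact p = 0.343), and all old libraries were 0.216 points below all young ones (exact p = 0.778). None of the 4 differences passed, with Benjamini-Hochberg adjusted values of 0.648, 0.648, 0.648 and 0.778. Without the 2 Y FIS male libraries, the young fisetin difference turned to −0.424 points and that between old and young to 0.580 points (exact p = 0.0857). In a share of captured cells, a change in lymphatic ECs and a change in blood ECs cannot be told apart, nor can numbers in the tissue and yield from digestion.

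The male and female shares are given as a description, as they were set side by side after the shares had been seen. Over all libraries the male share was 2.71% ± 1.40 (n = 7) and the female share 1.504% ± 0.688 (n = 8). Among young libraries every male was above every female (3.26% ± 1.69 against 1.07% ± 0.298, n = 4 each). Among old libraries the means were 1.96% ± 0.431 (n = 3 males) and 1.94% ± 0.712 (n = 4 females), 0.0213 points apart.

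**Figure D3:**
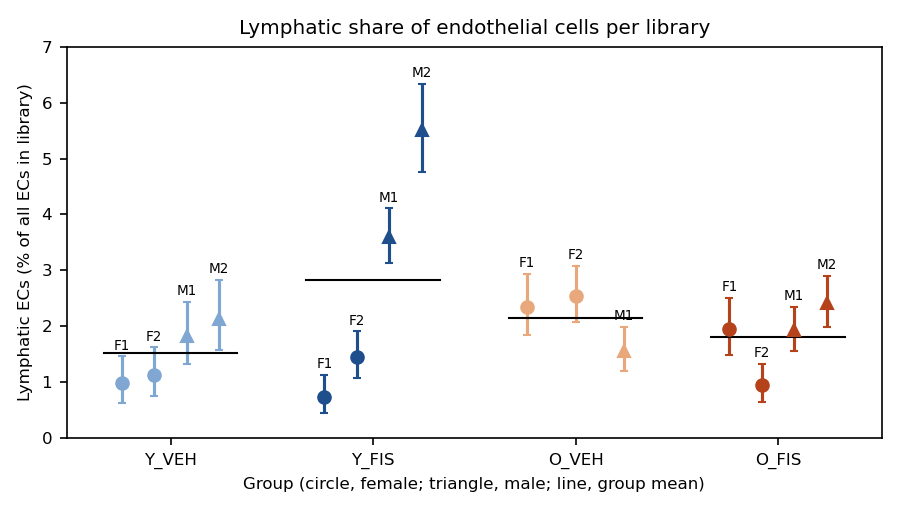
Lymphatic ECs in percent of all ECs (y axis) in each library by group (x axis), circles for female and triangles for male libraries, with 95% exact binomial intervals that cover counting error only and a line at the group mean. The Y FIS males, at 3.59% and 5.52%, lie above the other libraries, and in both young groups the males are above the females.

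To ask which RNAs differed within lymphatic ECs, the UMIs of a library's lymphatic ECs were added up per gene and tested with edgeR's quasi-likelihood test with group and sex as terms. Of the genes in the files 8853 passed the filter on low counts. A differentially abundant RNA (DAR) had a Benjamini-Hochberg adjusted p under 0.05, a log2 fold change beyond 0.25 and detection in over 10% of the cells of either side. In summed counts of a mixed class, a change in the cells' makeup and a change per cell cannot be told apart. Between O VEH and Y VEH there were 6 DARs (0.0678% of the genes tested), all lower in O VEH. Between the 7 old and 8 young libraries over both treatments there were 61 DARs (0.689%), of which 28 were higher in old mice (0.316% of the genes tested) and 33 lower (0.373%). The median log2 fold change of all genes was −0.0016, and 13 of the 8853 genes had old and young ranges that did not overlap, 8 of them DARs.

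The RNAs higher with age were led by genes of antigen presentation to CD4+ T cells by major histocompatibility complex (MHC) class II. Lymphatic ECs make little of these proteins at rest, and they can also receive them from dendritic cells. H2-Aa, H2-Ab1 and H2-Eb1 encode the peptide-binding chains. Cd74 encodes the invariant chain that guides them to endosomes, and H2-DMa and H2-DMb1 encode chains of the exchange factor that loads the peptide. The 5 H2 genes lie within chr17:34338515-34535648 of GRCm39.

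Class II genes share promoter elements that bind the factors through which the co-activator CIITA works, among them the X box and the Y box. The bases before the transcript start of 3 of these genes are shown because they held a match, with the matched letters in capitals, as RefSeq gives them on GRCm38.p6, a build other than that of the files. Each is the last 150 bases before the start, 5′ to 3′ on the gene's strand, from chr17:34287824-34287973 (H2-Aa, minus strand), chr17:34305717-34305866 (H2-Eb1, plus) and chr17:34153041-34153190 (H2-DMb1, plus).
H2-Aa: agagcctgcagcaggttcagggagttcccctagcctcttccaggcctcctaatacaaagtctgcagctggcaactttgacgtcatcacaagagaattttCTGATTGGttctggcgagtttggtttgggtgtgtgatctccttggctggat
H2-Eb1: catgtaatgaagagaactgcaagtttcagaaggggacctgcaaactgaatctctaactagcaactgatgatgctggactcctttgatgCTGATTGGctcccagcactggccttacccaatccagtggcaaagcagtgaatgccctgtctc
H2-DMb1: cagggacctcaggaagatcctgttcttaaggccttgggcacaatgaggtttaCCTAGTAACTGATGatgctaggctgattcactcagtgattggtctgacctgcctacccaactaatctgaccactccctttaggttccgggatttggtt
The letters searched, on both strands of the 250 bases before the start, were CTGATTGG for the Y box and the X box motif, of which the capitals in H2-DMb1 are the match. None of these 3 promoters held both sets of letters, and a near match was not counted. The Y box letters began 51 bases before the start in H2-Aa and 62 in H2-Eb1, and the X box letters 98 bases before it in H2-DMb1. Of all 32851 mouse promoters in the table, 3.83% held the Y box letters and 0.0487% the X box letters. Of the 5 H2 genes looked up 4 had an entry. H2-DMa, also higher in old mice, had 2 promoters in the table with neither set of letters, and H2-Ab1 had no entry. A match of letters is a description and not a binding site.

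Cd74 was at 150, 107, 149 and 407 CPM in Y VEH F1, F2, M1 and M2 and at 85.6, 308, 195 and 267 CPM in the same order in Y FIS. It was at 939, 311 and 1384 CPM in O VEH F1, F2 and M1 and at 404, 269, 753 and 1132 CPM in O FIS F1, F2, M1 and M2. Old libraries were mostly above young ones, with an overlap made by Y VEH M2 and Y FIS F2 on the young side and by O VEH F2, O FIS F1 and O FIS F2 on the old side. The log2 fold change was 1.80 ± 0.28 (SE; edgeR adjusted p = 0.00302, n = 7 and 8 libraries).

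H2-Ab1 lay between 67.6 and 150 CPM (median 106) in the 8 young and between 179 and 566 CPM (median 374) in the 7 old libraries, so that the ages did not overlap, and rose by 1.70 ± 0.26 on the log2 scale (adjusted p = 0.00198). H2-Aa lay between 11.4 and 177 CPM in young and 146 and 537 CPM in old libraries (log2 fold change 1.99 ± 0.32, adjusted p = 0.00413). H2-Eb1 lay between 42.5 and 128 CPM and between 91.6 and 537 CPM (2.01 ± 0.33, adjusted p = 0.00413). O VEH F2 was the lowest old library for all 3 genes. The exchange factor genes were lower counted and moved the same way, H2-DMb1 by 2.13 ± 0.31 (adjusted p = 0.00194) and H2-DMa by 1.72 ± 0.32 (adjusted p = 0.0129).

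The 6 class II genes summed to 287 to 880 CPM (median 439) in young and 789 to 3231 CPM (median 1895) in old lymphatic ECs. In blood ECs the same sum was 311 to 468 CPM in young and 336 to 805 CPM in old libraries, and in smooth muscle cells 103 to 491 and 99.3 to 286 CPM. The lymphatic level of old mice was thus above both classes of their own libraries in all but O VEH F2, where blood ECs held 805 CPM and lymphatic ECs 789 CPM. Markers of immune cells that make class II had higher medians in old libraries too. The B cell list without Cd74 summed to 24.6 to 177 CPM (median 95.1) in young and 93.2 to 1206 CPM (median 169) in old lymphatic ECs, with its defining genes Cd79a at a mean of 3.67 and Ms4a1 at 2.58 CPM. Macrophage genes had medians of 76.4 CPM in young and 131 CPM in old libraries, with 2 of 3 tested genes positive and none a DAR (median log2 fold change 0.78). The highest macrophage sum was that of Y VEH F1, whose class II sum was 488 CPM. The part of either cell type in the class II levels was not tested.

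**Figure D4:**
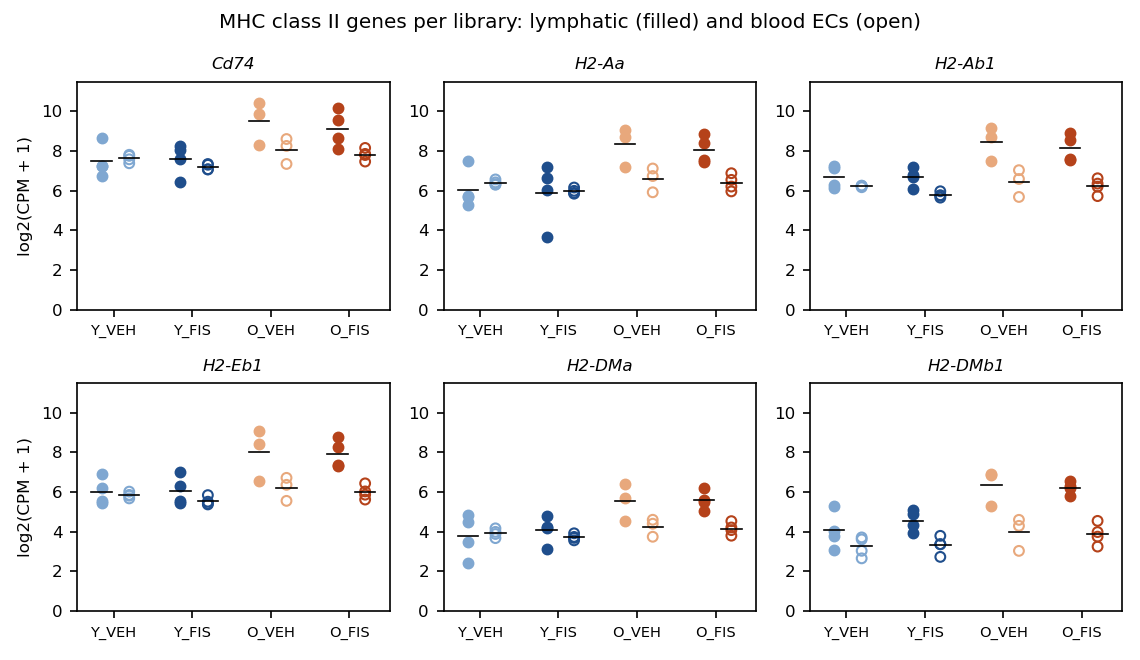
Levels of 6 class II genes as log2(CPM + 1) (y axis) in each library by group (x axis), filled points for lymphatic and open points for blood ECs, with a line at the group mean on this scale. Lymphatic ECs of old libraries reach 566 CPM of H2-Ab1 against at most 150 CPM in young ones, while blood ECs lie closer together.

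Whether age acted differently on the 2 endothelial classes was tested as an interaction within libraries. A gene was called here by an adjusted p under 0.05 alone, without the limits on fold change and detection used for DARs. Of 15055 genes 73 were called (0.485%), 40 with a more positive difference in lymphatic ECs (0.266%) and 33 with a more negative one (0.219%). H2-Aa rose by 1.70 ± 0.36 more on the log2 scale in lymphatic than in blood ECs (adjusted p = 0.0332), H2-Ab1 by 1.35 ± 0.30 (adjusted p = 0.0355) and H2-Eb1 by 1.57 ± 0.36 (adjusted p = 0.0479). For Cd74 the interaction was 1.31 ± 0.33 and did not pass (adjusted p = 0.0789). H2-DMa (adjusted p = 0.116) and H2-DMb1 (adjusted p = 0.191) did not pass either.

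With the cells of all libraries pooled, the 4 class II genes summarised by cluster (Cd74, H2-Aa, H2-Ab1 and H2-Eb1) were highest in cluster 2. H2-Ab1 was at 376 CPM there against 102 in cluster 1 and 70.0 in cluster 4. Cluster 2 held 240 old and 150 young cells and cluster 4 held 4 and 94, so age and cluster are mixed in this ranking. In young libraries the medians of H2-Aa, H2-Ab1 and H2-Eb1 were again highest in cluster 2. Median Cd74 was 266 CPM over 2 young libraries in cluster 4 and 193 CPM over 8 in cluster 2. For H2-Ab1 the young median was 62.9 CPM in cluster 4. In cluster 2 the median H2-Ab1 level was 157 CPM over 8 young and 518 CPM over 7 old libraries, and in cluster 1 it was 37.6 CPM over 4 young and 137 CPM over 7 old libraries with at least 10 cells. The old medians were thus higher in each of these clusters, as a description. In cluster 2 the ranges overlapped, at 64.0 to 350 CPM in young and 243 to 778 CPM in old libraries. In the 651 cells with 2 or 3 further markers all 6 class II genes were DARs again, Cd74 at 1.83 on the log2 scale (adjusted p = 0.0012). In the 480 cells with 4 or 5 markers, from 12 libraries, H2-DMa was not tested and none of the other 5 was a DAR (Cd74 0.48, adjusted p = 0.791, H2-Ab1 1.38, adjusted p = 0.323). The difference between these 2 sets of cells was not tested.

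The 6 genes were also DARs without the 159 cells that had a UMI of Marco, Itga2b, Stab2 or Madcam1 (adjusted p of 0.00241 to 0.0391). Without the 2 Y FIS male libraries none passed, with log2 fold changes of 1.35 to 1.74 and adjusted p of 0.0537 to 0.138. Between the vehicle groups alone the genes pointed the same way and did not pass, with Cd74 at 2.22 ± 0.42 (adjusted p = 0.0527), H2-DMb1 at 2.44 ± 0.49 (adjusted p = 0.0853) and H2-Aa at 2.28 ± 0.49 (adjusted p = 0.0990).

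Of the whole antigen presentation list 19 of 20 genes were tested, and 18 had a positive difference between old and young, with a median log2 fold change of 0.56 (all genes −0.0016). Its DARs were Cd74, H2-Aa, H2-Ab1, H2-Eb1 and the class I genes H2-Q4 (0.95 ± 0.19, adjusted p = 0.0199) and H2-T22 (0.67 ± 0.15, adjusted p = 0.0379). Of all genes tested, 0.316% were DARs higher in old mice. The classical class I chains H2-K1 (0.49 ± 0.15, adjusted p = 0.177) and H2-D1 (0.29 ± 0.13, adjusted p = 0.475) and their partner B2m (0.33 ± 0.16, adjusted p = 0.542) did not pass.

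Other DARs higher with age are given one by one, as they belong to no list that was tested. The complement genes C4b (1.74 ± 0.34, adjusted p = 0.0173) and C1ra (1.32 ± 0.30, adjusted p = 0.0381) rose, as did Serping1, the C1 inhibitor (0.72 ± 0.15, adjusted p = 0.0221). The C4b call was lost in 4 of 23 settings, counting the reported one, with adjusted p up to 0.0565. Lcn2 was at 288 to 718 CPM in young and 673 to 1154 CPM in old libraries and rose by 0.92 ± 0.19 (adjusted p = 0.0244). Lrg1, a secreted glycoprotein that modulates TGF-β signalling, rose by 0.61 ± 0.12 (adjusted p = 0.0213), and Lbp, which binds lipopolysaccharide, by 0.55 ± 0.12 (adjusted p = 0.0381). Pla2g7, which cleaves platelet-activating factor, rose by 1.84 ± 0.39 (adjusted p = 0.0310), a call lost in 9 of 23 settings, 8 of them with 1 library left out (adjusted p up to 0.141). Without the cells that had a UMI of Marco, Itga2b, Stab2 or Madcam1, Lcn2 (0.66, adjusted p = 0.208), Lbp (0.42, adjusted p = 0.236), C1ra (1.26, adjusted p = 0.102) and Lrg1 (0.62, adjusted p = 0.0606) kept their direction and did not pass. Lcn2 was at 36.6 CPM in cluster 4, nearly all of whose cells were from young libraries, and at 326 to 1023 CPM in the other 4 clusters. Without the 2 Y FIS male libraries no DAR was higher with age.

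Nts was at 316 to 736 CPM (median 444) in young and 697 to 1858 CPM (median 847) in old libraries (1.04 ± 0.17, adjusted p = 0.00503). Ednrb, the endothelin B receptor, was at 188 to 449 CPM (median 314) and 448 to 957 CPM (median 586; 0.98 ± 0.16, adjusted p = 0.00379). For both the ranges overlapped only at their edges, and for both the age difference was larger in lymphatic than in blood ECs (interaction of 1.56, adjusted p = 0.0302, for Nts and 1.03, adjusted p = 0.0465, for Ednrb). In cluster 2 the median Nts level was 993 CPM in young and 1140 CPM in old libraries with at least 10 of its cells. It was 245 and 441 CPM in the same order in cluster 1, and 572 and 641 CPM in cluster 3. Median Ednrb was 519 and 662 CPM in cluster 2, 172 and 268 in cluster 1 and 296 and 445 in cluster 3. Cluster 4, nearly all from young libraries, held Nts at 117 and Ednrb at 77.4 CPM. The part of cluster makeup in these age differences was not tested. Kcnt2, a potassium channel subunit (1.07 ± 0.21, adjusted p = 0.0159), Nqo1, a quinone reductase (0.65 ± 0.13, adjusted p = 0.0190, ages not overlapping), and Tmem201 of the inner nuclear membrane (1.64 ± 0.36, adjusted p = 0.0381) also rose. Without the Marco, Itga2b, Stab2 or Madcam1 cells Nts (0.89, adjusted p = 0.0450) and Ednrb (0.81, adjusted p = 0.0138) passed again, and Kcnt2 (0.84, adjusted p = 0.0637), Nqo1 (0.48, adjusted p = 0.176) and Tmem201 (1.57, adjusted p = 0.153) did not. Tmem201 was not called in 11 of 21 settings, counting the reported one, with adjusted p up to 0.165. Among these were DESeq2, no sex term, the replicate block and leaving out Y VEH F1, F2 or M1, either Y FIS male, O VEH F1 or M1, or O FIS F2.

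S100a8, a neutrophil protein, had the highest log2 fold change of the DARs higher with age, at 3.14 ± 0.64 (adjusted p = 0.0213), at 0 to 15.1 CPM in young and 3.58 to 33.2 CPM in old lymphatic ECs. Its mean in smooth muscle cells, which should lack it, was 10.2 CPM, and in blood ECs 20.7 CPM, against 11.02 CPM in lymphatic ECs. The neutrophil gene list summed to 0 to 37.8 CPM in young and 17.9 to 84.5 CPM in old lymphatic ECs, with Ly6g at 0 in every library. The S100a8 call was lost in 5 of 22 settings, counting the reported one, with adjusted p up to 0.104. The part of free neutrophil RNA in this call was not tested.

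Among the DARs lower with age with the largest fold were RNAs of cluster 4. Stab2 was at 61.0, 706, 257 and 0 CPM in Y VEH F1, F2, M1 and M2 and at 0, 3.52, 377 and 495 CPM in the same order in Y FIS. In the 7 old libraries it was at 2.66 to 54.9 CPM. Values of 257 to 706 CPM were seen in Y VEH F2, Y VEH M1 and both Y FIS males. Y VEH F1, with 23 lymphatic ECs, was close to the highest old library. The 3 young libraries in which cluster 4 was not found were at 0 to 3.52 CPM. The log2 fold change was −4.23 ± 0.93 (adjusted p = 0.0369), and the call for Stab2 was lost in 12 of 24 settings (counting the reported one), with −4.69 to −3.02 and adjusted p up to 0.165. Among these were DESeq2, the replicate block and leaving out Y VEH F2, Y VEH M1, either Y FIS male or any old library but O FIS F1.

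Robo1, a Slit receptor (−5.35 ± 1.01, adjusted p = 0.0173), Colq, which anchors acetylcholinesterase (−5.10 ± 0.94, adjusted p = 0.0127), and Ltbp2, a matrix protein (−5.01 ± 0.87, adjusted p = 0.00626), were lower in old mice. Adam33 (−4.78 ± 0.76, adjusted p = 0.00451), the netrin receptor Unc5c (−4.14 ± 0.61, adjusted p = 0.00198) and Ltb, lymphotoxin beta (−4.11 ± 0.84, adjusted p = 0.0214), followed. Dock10 (−3.68 ± 0.61), Sdk1 (−3.77 ± 0.79) and Pde1c (−3.54 ± 0.79) had adjusted p of 0.00486, 0.0262 and 0.0381. In old libraries the median of each of these 9 genes was between 0 and 4.58 CPM, so that their fitted folds depend on the prior count. Several of these calls were lost in other settings too, in 11 of 24 for Pde1c, 9 of 24 for Ltb and for Sdk1, 7 of 24 for Colq, 6 of 22 for Robo1 and 5 of 24 for Ltbp2.

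In cluster 4 Robo1 was at 371, Colq at 272, Ltbp2 at 350, Ltb at 436 and Dock10 at 618 CPM, against at most 10.9 CPM in each of the other 4 clusters. Unc5c was at 243 CPM in cluster 4 and 90.6 CPM in cluster 5. Adam33, Sdk1 and Pde1c were not summarised by cluster, and the young level of Sdk1 came largely from Y VEH F2 (569 CPM, next highest 109). Marco itself was at 22.2, 423, 1559 and 0 CPM in Y VEH F1, F2, M1 and M2, at 0, 0, 967 and 694 CPM in Y FIS, and at 0 in all old libraries but O FIS F2, with 3.58 CPM. Its adjusted p was 0.00626, but it was detected in under 10% of the cells of either age and is not among the 61 DARs. Without the 159 cells that had a UMI of Marco, Itga2b, Stab2 or Madcam1, 34 DARs were found, 22 higher and 12 lower with age. Of the 61 DARs 50 were still tested there, 49 in the same direction and 26 as DARs. Robo1, Colq, Ltbp2, Adam33, Ltb, Dock10 and Pde1c then fell under the filter on low counts, as did Stab2, whose UMIs this choice of cells removes by construction. Without the 2 Y FIS male libraries 5 DARs were left, all lower with age, and Pde1c turned to 0.15. In these 13 libraries 58 of the 59 DARs that were tested kept their direction.

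**Figure D5:**
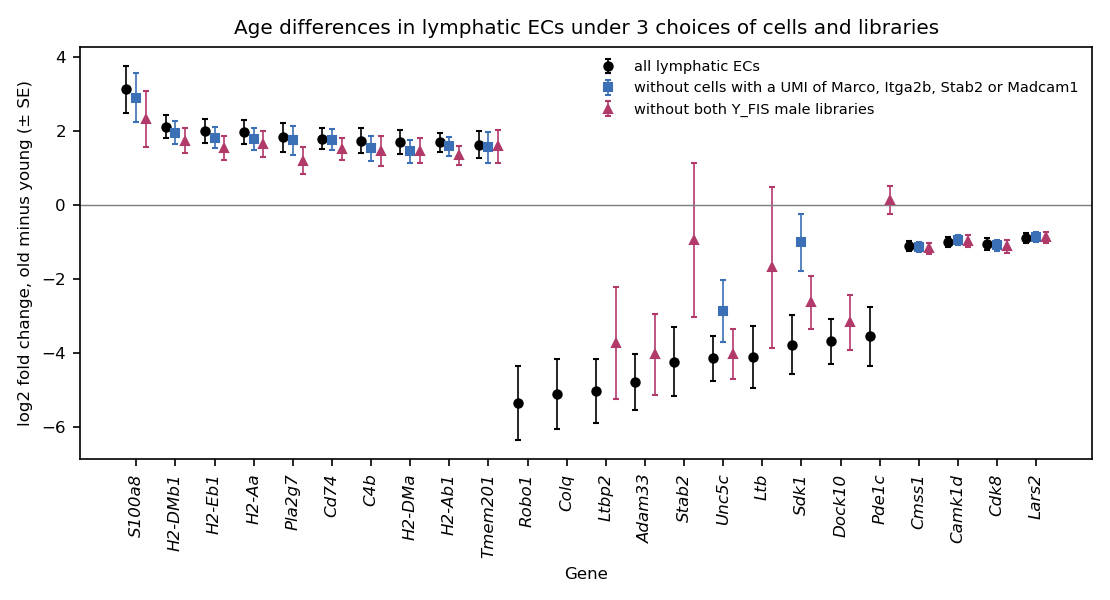
Log2 fold change between old and young libraries (y axis, ± SE) of the 10 DARs with the largest rise, the 10 with the largest fall and 4 RNAs lower in both endothelial classes (x axis), in all lymphatic ECs, without cells that had a UMI of Marco, Itga2b, Stab2 or Madcam1, and without the 2 Y FIS male libraries. Points that could not be fitted, or with an SE over 3, are not drawn. The class II genes stay between 1.35 and 2.13 in all 3, while Stab2 goes from −4.23 to −0.94 without the Y FIS males.

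A further set of RNAs was lower in old mice in both endothelial classes. Cmss1, a nucleolar protein gene, was at 3637 to 5984 CPM in young and 1386 to 3399 CPM in old lymphatic ECs, without overlap, and fell by 1.11 ± 0.13 on the log2 scale (adjusted p = 0.000877). Camk1d (−0.996 ± 0.14, adjusted p = 0.00194), Cdk8, a kinase of the Mediator complex (−1.04 ± 0.16, adjusted p = 0.00198), and Lars2, the mitochondrial leucyl-tRNA synthetase (−0.88 ± 0.13, adjusted p = 0.00194), fell with it. They were also 4 of the 6 DARs between O VEH and Y VEH, with log2 fold changes of −1.29 to −1.57. There the call for Cdk8 was lost in 10 of 25 settings (counting the reported one), among them fitting only the groups compared, requiring at least 3 further markers (adjusted p = 0.309), and leaving out Y VEH F1, Y FIS F1, any O VEH library, or any O FIS library but F2. Blood ECs had nearly the same differences, at −1.21 ± 0.13 for Cmss1, −0.97 ± 0.13 for Camk1d, −1.23 ± 0.15 for Cdk8 and −0.87 ± 0.12 for Lars2. In smooth muscle cells Cmss1 was at 2897 to 4415 CPM in young and 925 to 2767 CPM in old libraries. The interaction for these 4 genes was between 0.0081 and 0.25 and did not pass (adjusted p of 0.663 to 1). The labels give no preparation batch, and a batch that follows age cannot be told apart from age. In all, 10 of the 61 DARs of lymphatic ECs were also DARs in blood ECs, where 76 of 15729 genes were called, and all 10 had the same direction.

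Beyond the class II genes, the interaction called genes with the smallest p among those more positive in lymphatic ECs were Cadm3, a cell adhesion molecule (4.34 ± 0.68, adjusted p = 0.00565), Chp2 (1.33 ± 0.22), Htr2b, a serotonin receptor (1.61 ± 0.26), Pid1 (1.79 ± 0.29) and Aebp1 (1.06 ± 0.18). Cadm3 was at 8.59 to 32.2 CPM in old and 0 to 3.11 CPM in young lymphatic ECs, and at means of 4.93 and 5.54 CPM in old and young blood ECs. For Chp2 the interaction came from blood ECs, which went from 77.0 CPM in young to 31.7 CPM in old mice, while lymphatic ECs were at 129 and 125 CPM. Among genes more negative in lymphatic ECs were Pcdh17, a protocadherin (−2.51 ± 0.35, adjusted p = 0.00274), Auts2 (−2.96 ± 0.50), Ptprr (−3.82 ± 0.72) and Dock10 (−3.26 ± 0.61). Ptprr, at means of 1.63 CPM in old and 15.6 CPM in young lymphatic ECs, was under the filter on low counts when these cells were tested alone. Dock10 was at 618 CPM in cluster 4 and at most 10.9 CPM in the other clusters. Cacna2d1, a calcium channel subunit (−1.38 ± 0.21, adjusted p = 0.00366), rose in blood ECs by 1.45 ± 0.18 and differed by −0.0015 in lymphatic ECs.

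The 6 rule genes chose the cells, so their levels are a description and say nothing on whether identity changed. Prox1 was at 399 to 778 CPM in young and 454 to 719 CPM in old libraries. Rule genes are also members of some of the lists that follow. Of 18 lymphatic transcription factors, 9 were positive and none a DAR (median −0.0023), with Foxp2 at 0.25 ± 0.16, Maf at 0.18 ± 0.17 and Nr2f2 at 0.0029 ± 0.13. Of the 14 tested genes of VEGF-C and angiopoietin signalling, 8 were positive and none a DAR (median 0.021), with Kdr (VEGFR2) at 0.04 ± 0.11 and Tek (Tie2) at −0.13 ± 0.11. Missing the threshold does not show that these genes were equal between the ages.

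Among the marker lists of cell types, 3 more DARs were lower in old mice. Clu of the collecting and valve list was at 93.3 to 1771 CPM in young and 36.2 to 122 CPM in old libraries (−2.37 ± 0.55, adjusted p = 0.0432), and 4 of the 10 genes of that list were positive (median −0.12). Cytl1, of the blood endothelial list (5 of 14 positive, median −0.14), differed by −1.76 ± 0.41 (adjusted p = 0.0432). Col3a1, a fibrillar collagen of the fibroblast list, was at 20.1 to 72.7 CPM in young and 3.85 to 36.7 CPM in old libraries (−1.42 ± 0.33, adjusted p = 0.0432), and 1 of the 7 fibroblast genes tested was positive (median −0.80). Without the cells that had a UMI of Marco, Itga2b, Stab2 or Madcam1, Clu (−0.92, adjusted p = 0.197), Cytl1 (−1.63, adjusted p = 0.135) and Col3a1 (−1.40, adjusted p = 0.0727) were not called. Clu was at 3886 CPM in cluster 4 and at most 277 CPM in the other clusters. Cytl1 was at 756 CPM in cluster 5 and at most 19.0 CPM in the other clusters. Without the 2 Y FIS male libraries the 3 genes were not called either (adjusted p of 0.361 to 0.450).

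The junctions, receptors and matrix were tested as lists as well. The 17 tested junction and adhesion genes held no DAR, with a median of −0.12 and Cldn5 (claudin-5) at −0.04 ± 0.12. Among 12 tested scavenging genes Stab2 was the only DAR, and 1 of the 12 was positive, Stab1 at 0.37 ± 0.13 (adjusted p = 0.313). The 11 tested chemokine and S1P genes held no DAR, with Ackr4 at 0.41 ± 0.25 (adjusted p = 0.673). The 21 basement membrane and matrix genes (median −0.027) and the 17 lipid handling genes (median −0.062) held none either, nor did the 14 genes of mesenchymal transition (median −0.17). The 20 immediate early and dissociation stress genes had a median of −0.31 with 3 positive and no DAR, Egr1 at −0.74 ± 0.20 (adjusted p = 0.116) among them.

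Of 28 senescence and SASP genes, 14 passed the filter on low counts. None was a DAR between old and young (8 of 14 positive, median 0.028), between O VEH and Y VEH (median 0.053) or between O FIS and O VEH (median −0.051). Cdkn1a, the cell cycle inhibitor p21, differed by 0.20 ± 0.38 between old and young (adjusted p = 0.931). Igfbp7 differed by −1.01 ± 0.32 (adjusted p = 0.202) and Igfbp5 by 0.34 ± 0.20 (adjusted p = 0.643).

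In the vehicle mice alone the remaining DARs were Mgp, an inhibitor of calcification, and Myof (myoferlin). Mgp was at 1192, 1215, 526 and 442 CPM in Y VEH F1, F2, M1 and M2 and at 290, 296 and 204 CPM in O VEH F1, F2 and M1, lower in every O VEH library (−1.76 ± 0.31, adjusted p = 0.0318). Of all genes tested, 5.69% had O VEH and Y VEH ranges that did not overlap. The Mgp call was lost in 8 of 25 settings (counting the reported one), among them leaving out Y VEH F1, Y VEH F2, O FIS M2 or any O VEH library, with adjusted p of 0.0545 to 0.258, and requiring at least 3 further markers (−0.81, adjusted p = 0.944). It was lost without the Marco, Itga2b, Stab2 or Madcam1 cells too (−1.58, adjusted p = 0.0552). In O FIS it was at 474, 1074, 892 and 652 CPM in F1, F2, M1 and M2, above every O VEH library as in 5.25% of all genes tested, which did not overlap between these groups, with a difference of 1.75 ± 0.31 that did not pass (adjusted p = 0.183). Myof was at 27.7 to 77.7 CPM in Y VEH, 5.78 to 13.6 CPM in O VEH (−2.39 ± 0.41, adjusted p = 0.0280) and 21.4 to 41.2 CPM in O FIS (1.61 ± 0.40 against O VEH, adjusted p = 1). The Myof call between O VEH and Y VEH was lost in 6 of 24 settings, among them fitting only the groups compared (adjusted p = 0.224), the replicate block and leaving out Y VEH F2, O VEH F1, O VEH M1 or O FIS M2. Both comparisons use the same 3 O VEH libraries, so the opposite signs are not independent. Mgp is also made by smooth muscle cells and fibroblasts. Smooth muscle genes had a positive difference between O FIS and O VEH for all 6 tested (median 1.53), and fibroblast genes between O VEH and Y VEH for 1 of 7 (median −0.64). Within the lymphatic ECs Mgp was at 2744 CPM in cluster 5 and at 97 to 523 CPM in the other clusters. Cluster 5 made up 2.74% to 4% of the lymphatic ECs in O VEH libraries and 6.25% to 9.38% in O FIS libraries. In Y VEH libraries it made up 2.27% to 17.9%, a range that overlapped that of O VEH. The part of smooth muscle cells, fibroblasts and cluster makeup in the Mgp levels was not tested. In the cells with 4 or 5 further markers the Mgp difference between O VEH and Y VEH was 1.46 and did not pass (adjusted p = 0.956).

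Fisetin gave no DAR in lymphatic ECs at either age by edgeR (0% of the genes tested in both). Between O FIS and O VEH 336 of the 8853 genes tested had an unadjusted p under 0.05 and DESeq2 called 2. Between Y FIS and Y VEH the counts were 477 and 2. Among genes without any difference, a share of 0.05 would have such a p by chance. Without the filter on low counts edgeR tested every gene with a count, a larger set, and called 52 and 48 genes. Beside Mgp and Myof, the genes with the smallest p that were higher in O FIS were Pde3a, a cAMP phosphodiesterase (2.53 ± 0.51, adjusted p = 0.353), Dcaf12 (1.09 ± 0.27) and Ddx47 (1.01 ± 0.26). Those lower in O FIS were Gbp2, a guanylate-binding protein induced by interferon (−1.58 ± 0.40), Mustn1 (−0.92 ± 0.24), Emilin1 (−0.98 ± 0.26), Gbp7 (−0.86 ± 0.25) and Glul, glutamine synthetase (−0.78 ± 0.23), each with an adjusted p of 1. Gbp2 was at 385, 108 and 198 CPM in O VEH F1, F2 and M1 and at 61.8, 64.4, 74.9 and 87.7 CPM in O FIS F1, F2, M1 and M2, lower in every fisetin library, again a separation seen in 5.25% of all genes.

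The interferon response list had a negative difference between O FIS and O VEH for all 26 genes tested, with a median log2 fold change of −0.69 (all genes 0.0002), and none was a DAR. Between O VEH and Y VEH 25 of the 26 were positive (median 0.94) with no DAR, from the same 3 O VEH libraries. The summed level of the 31 genes in the list was 6609, 3191 and 6131 CPM in O VEH F1, F2 and M1, and 3554 to 4381 CPM in O FIS. It was 3078 to 3588 CPM in Y VEH and 3160 to 4784 CPM in Y FIS. O VEH F2 was below all 4 O FIS libraries, so the difference rested on the other 2 O VEH libraries. Among the members Ifit3 differed by 2.18 ± 0.47 between O VEH and Y VEH (adjusted p = 0.0990). Over both treatments 24 of the 26 were positive between old and young with a median of 0.31. The antigen presentation genes were negative between O FIS and O VEH in 18 of 19 (median −0.35), with Cd74 at −0.63 ± 0.39.

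In young mice the genes with the smallest p were 2210408I21Rik (1.89 ± 0.36, adjusted p = 0.365), Ap4s1 (1.51 ± 0.32), Slit3, a ligand of the Robo receptors (2.89 ± 0.66), Zfp516 (1.20 ± 0.28) and Lancl2 (2.08 ± 0.51) on the side higher in Y FIS. Lower in Y FIS were Dbndd2 (−1.04 ± 0.21), Tns2 (−0.89 ± 0.19), Jade2 (−0.99 ± 0.24), Plec, the linker plectin (−0.62 ± 0.15), and Nbl1, a BMP antagonist (−1.36 ± 0.34). The adjusted p of the other 9 was 0.424 to 0.505, and none passed.

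Between the sexes there were 9 DARs (0.102%), 4 higher in females (0.0452%) and 5 higher in males (0.0565%). Of these, 6 were the X inactivation RNAs Xist and Tsix and the Y-linked genes Uty, Ddx3y, Eif2s3y and Kdm5d, and the Y-linked genes were at 0 in all 8 female libraries, as the labels require. The other 3 were Sh3pxd2a, a podosome scaffold, at 172 ± 28.7 CPM in female and 97.2 ± 30.2 CPM in male libraries (0.86 ± 0.15, adjusted p = 0.0230), Ctsh, the protease cathepsin H, at 402 ± 111 and 246 ± 28.6 CPM (0.71 ± 0.14, adjusted p = 0.0390), and Dpyd, the first enzyme of pyrimidine breakdown, at 20.2 ± 5.75 and 61.1 ± 41.3 CPM (−1.34 ± 0.25, adjusted p = 0.0384). For Ctsh every female library was above every male one, and 0.147% of all genes tested did not overlap between the sexes. The calls were not firm. Counting the reported fit, Ctsh was not called in 13 of 23 settings, among them leaving out any of 11 libraries (all but Y VEH F1, O VEH F2, O VEH M1 and O FIS F1) and requiring at least 3 further markers (0.34, adjusted p = 0.847). Sh3pxd2a was not called in 8 of 23, among them leaving out Y VEH F2, Y FIS F2, either Y FIS male, either O FIS male or O FIS F2, with the highest adjusted p at 0.716, and Dpyd not in 11 of 23, 9 of them with 1 library left out, with the highest at 0.256. Dpyd was also a DAR between old and young (−1.14 ± 0.25, adjusted p = 0.0381), and its 2 highest values, 109 and 124 CPM, were those of the Y FIS males. Without the Marco, Itga2b, Stab2 or Madcam1 cells Dpyd turned to 0.21 between old and young (adjusted p = 0.925) and was at −0.36 between the sexes (adjusted p = 0.796), so both calls were lost. In the cells with 4 or 5 further markers Ctsh turned to −0.30.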

How the data were processed

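Whole aortas were dissociated and viable cells were sorted before droplet capture with 10x 3′ v3.1 chemistry, in 15 libraries. The deposited tables are whole-number UMI counts per gene and barcode, which the authors made with Cell Ranger 8.0.1 on a GRCm39 reference, per the submitters' processing notes, which also name Seurat 5.2.0. These counts are not normalised and hold only barcodes called as cells, so free RNA was not measured. All 130551 barcodes were read and 128019 kept. The lymphatic ECs held 8674588 UMIs in all. Cells came from the rule given in the results, and doublets were scored with Scrublet (expected rate 0.08) but not removed from the values given.

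Counts were summed over the cells of a library, filtered with filterByExpr and scaled by TMM, and fitted with edgeR 4.0.16 (R 4.3.3) on terms for group and for sex across the 15 libraries, with p-values adjusted over all genes tested. The difference between lymphatic and blood ECs was fitted with the library as a block. Shares were compared by exact permutation tests over libraries, with every split of the libraries computed in numpy 2.4.6. Intervals are at 95% (exact binomial, scipy 1.17.1) and cover counting error only. Clusters came from scanpy 1.11.5 (2000 variable genes, 30 principal components, 20 neighbours, Leiden resolution 0.5), with 199 genes left out. The scripts were tested on simulated data. Library numbers were not treated as pairs.

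Genes were named by rule: the 6 rule genes, the 10 DARs with the largest rise and the 10 with the largest fall per comparison, the 5 genes with the smallest p in a direction with fewer than 3 DARs, the DARs and most abundant members of each gene list, the 20 genes with the highest ratio to blood ECs, and the 5 with the smallest p in each direction of the interaction. Genes named beyond this rule, such as Marco, Igkc, Ednrb, the complement genes, the list members below the most abundant and the 6 class II genes as a set, were chosen after their values were seen. The members, lists and tests were chosen with earlier results of these data known. Alternatives were DESeq2 1.42.0, other size factors, no filter on low counts, a replicate block, other marker limits, other subsets of cells, and leaving out libraries. Promoter sequences are from RefSeq. Values of some genes are not reported here.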

Additional observations from a re-analysis of the deposited data

Results flagged for a closer look

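In groups of 4 to 10 libraries, 102 sets of levels were searched for a highest or lowest library far from the next one, measured as the gap over the whole range of the group, and 6 were found. Chance alone gives about 1 in 20 such groups. In Y VEH, M2 was highest for Cd74 (407 CPM, next 150, gap 0.857 of the range), H2-Aa (177 CPM, next 51.3, gap 0.903), Lars2 (883 CPM, next 577, gap 0.838) and Jade2 (68.4 CPM, next 47.0, gap 0.889). For Pde1c, O FIS F1 was highest of the old libraries (12.02 CPM, next 5.78, gap 0.584). For Sdk1, Y VEH F2 was highest of the young libraries (569 CPM, next 109, gap 0.808).

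The age difference differed between lymphatic and blood ECs, by the test of that difference, for 73 genes. Of the 10 with the smallest p in the 2 directions and 3 class II genes, the values on the log2 scale are given here. The difference was more positive in lymphatic ECs by 4.34 for Cadm3, 1.33 for Chp2, 1.61 for Htr2b, 1.79 for Pid1, 1.06 for Aebp1, 1.70 for H2-Aa, 1.35 for H2-Ab1 and 1.57 for H2-Eb1. It was more negative, at −2.51 for Pcdh17, −1.38 for Cacna2d1, −2.96 for Auts2, −3.82 for Ptprr and −3.26 for Dock10.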

How the results depend on the processing

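Counts of DARs depended on the processing. With DESeq2 there were 20 between O VEH and Y VEH, 2 between O FIS and O VEH, 2 between Y FIS and Y VEH and 32 between the sexes, and with no filter on low counts 134, 52, 48 and 210 in the same order, 256 between old and young and 426 in the interaction. Fitting only the groups compared left 1 between O VEH and Y VEH. With at least 3 further markers there were 21 between old and young, 5 between the sexes and 175 in the interaction. The other subsets were chosen after seeing the data. In cells with 4 or 5 further markers there were 3 between O VEH and Y VEH, 1 between Y FIS and Y VEH, 3 between old and young and 4 between the sexes, and Mgp (1.46, O VEH minus Y VEH), Glul (0.095, O FIS minus O VEH) and Ctsh (−0.30, female minus male) changed sign. In cells with 2 or 3 there were 12 between O VEH and Y VEH and 40 between the sexes. Without cells with a UMI of Marco, Itga2b, Stab2 or Madcam1 there were 1 between O FIS and O VEH, 34 between old and young and 45 in the interaction, and Dpyd turned to 0.21 (old minus young). Without both Y FIS males there were 13 between O VEH and Y VEH, 1 between Y FIS and Y VEH, 5 between old and young and 24 in the interaction, and Pde1c turned to 0.15. The old minus young share turned to 0.0825 points of all kept cells, 0.0934 without the Marco, Itga2b, Stab2 or Madcam1 cells and 0.580 without both Y FIS males, and the Y FIS minus Y VEH share to −0.424 there. The causes were not tested.

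With the replicate block the counts were 7, 0, 0 and 8 in the order used above and 33 between old and young. Deviations of the 21 same-numbered pairs correlated at −0.163 to 0.370 (median 0.106), against a median of −0.0457 for the 63 other pairs between groups. Of the 15 libraries 5 were closest to their own number. Whether the numbers mark pairs was not tested.

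Leaving out 1 library at a time gave 1 to 26 DARs between O VEH and Y VEH (1 without O VEH M1, 2 without O VEH F1, 26 without O VEH F2, 15 without Y VEH M2, 11 without Y FIS F2, 3 without O FIS M2), 0 to 1 between O FIS and O VEH (1 without O FIS F1), 0 to 0 between Y FIS and Y VEH, 20 to 90 between old and young (20 without O VEH M1, 23 without Y FIS M1 or M2), 6 to 25 between the sexes and 15 to 159 in the interaction. The share differences ranged over 0.435 to 0.927 points (O VEH minus Y VEH), −0.633 to −0.0481 (O FIS minus O VEH), 0.411 to 2.01 (Y FIS minus Y VEH) and −0.421 to 0.262 (old minus young, 0.262 without Y FIS M2). Libraries with 20 to 49 lymphatic ECs limit what can be detected.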
